A study of Mus musculus with 4 samples.

Results

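The sorted vessel progenitor populations P1 and P2 of C57BL/6 mice were compared in the libraries whose labels name fat as the tissue. Both were sorted as CD45-, Ter119- and Tie2+ cells, which leaves out leukocytes and erythroid cells and keeps cells with the angiopoietin receptor on their surface. P1 cells were PDGFRa-, CD31+, CD105high and Sca1low, and P2 cells were PDGFRa+, CD31-, CD105low and Sca1high. No treatment, transgene or deletion is named for any group, and the age, sex and number of animals and the fat depot are not given in the sources used here. Each population of each tissue was measured in 1 library by droplet-based 3' single-cell RNA sequencing (10x Genomics), so the series holds 4 libraries and no replicates. Cell barcodes with at least 1000 UMIs (unique molecular identifiers, 1 for each captured transcript), 500 genes or more and no more than 10% of their UMIs from the mitochondrial genome were kept. That left 1948 of 3783 deposited barcodes in the fat-labelled P1 library and 7898 of 9025 in fat P2, together 9846 of the 11934 kept in all 4 libraries. The UMIs of a library were summed over its kept barcodes and scaled to a common library total (CPM). With 1 library per side, every difference below describes these libraries, no p-value can be given, and the exact Poisson and Clopper-Pearson 95% intervals cover counting error only.

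Blood vessels are lined by endothelial cells, which are sealed by VE-cadherin and claudin junctions, read VEGF and blood flow, and move lipid, water and solutes through caveolae and fenestrae. Around them lie PDGFRa-positive fibroblasts, which lay down collagens, proteoglycans and elastic fibres, secrete complement proteins and growth factors, and in fat include the progenitors of adipocytes. Lung capillaries carry a programme of their own, with the transcription factor Foxf1 and the prostaglandin-degrading enzyme Hpgd among its known genes, and lie against an epithelium that makes surfactant.

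The 2 libraries differed in depth and in the barcodes they lost. The fat-labelled P1 library held 6510236 UMIs in kept barcodes, with a median of 2964 per barcode, and fat P2 held 43599072, with a median of 5151.5. The other P1 library, labelled lung P1, and lung P2 kept 652 and 1436 barcodes with 1118642 and 3880015 UMIs. More than 10% mitochondrial UMIs were found in 43.5% of the deposited barcodes of the fat-labelled P1 library and in 7.45% of fat P2. Among kept barcodes, mitochondrial genes still held 5.36% and 2.99% of the UMIs. Between these libraries 8 deposited and 1 kept barcode sequences were shared. A gene with 0 UMIs could stand at up to 3 counts, which is 0.461 CPM in the fat-labelled P1 library and 0.0688 in fat P2. The tissue label of the P1 library was contradicted by its own genes, as shown for Foxf1, Hpgd and surfactant genes below, so that population and organ are not separated by the pair labelled fat alone. The levels in the other libraries are therefore given beside most fat values. Where all are given, the order is P1 labelled fat, P2 of fat, P1 labelled lung, P2 of lung.

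RNA of the sort gate followed the gate for most of its genes. Pecam1, which encodes CD31, stood at 1757, 2.39, 1223 and 88.1 CPM. Eng, which encodes CD105, stood at 1294, 46.6, 976 and 99.2 CPM. Pdgfra stood at 9.22, 447, 14.3 and 1752 CPM. Both P1 libraries lay on one side of both P2 libraries for these 3 genes. Tek, which encodes Tie2 and is required by both gates, stood at 685, 164, 228 and 40.7 CPM, and its log2 ratio of 1.997 in fat lay just under the size used here as a call. Ly6a, which encodes Sca1 and is gated as low in P1, did not separate the populations in fat, with 2423, 1921, 1750.3 and 205 CPM and a log2 ratio of 0.33 that was -0.17 with TMM scaling. Ly6a belongs to a family of similar genes, and reads shared with its copies could be split between them. Ptprc, which encodes CD45, was near 0 in all 4 libraries, at 4.45, 1.33, 18.8 and 4.38 CPM.

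Over 4727 genes that reached 50 CPM on either side, 586 (12.4%) were higher by 4-fold or more in the fat-labelled P1 library and 479 (10.1%) higher by 4-fold or more in fat P2. The ratio was taken after adding 10 CPM to both sides, which draws low genes towards no difference. Of all genes compared, 2686 (56.8%) lay within 2-fold, and the median log2 ratio of P1 over P2 was 0.38. TMM scaling, which centres the bulk of genes, moved that median by -0.45, and median-of-ratios scaling moved it by -0.44. The share of called genes on the P1 side went from 55.0% to 41.3% and 41.9% with these scalings. Which side holds more genes therefore depended on the scaling.

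**Figure D1:**
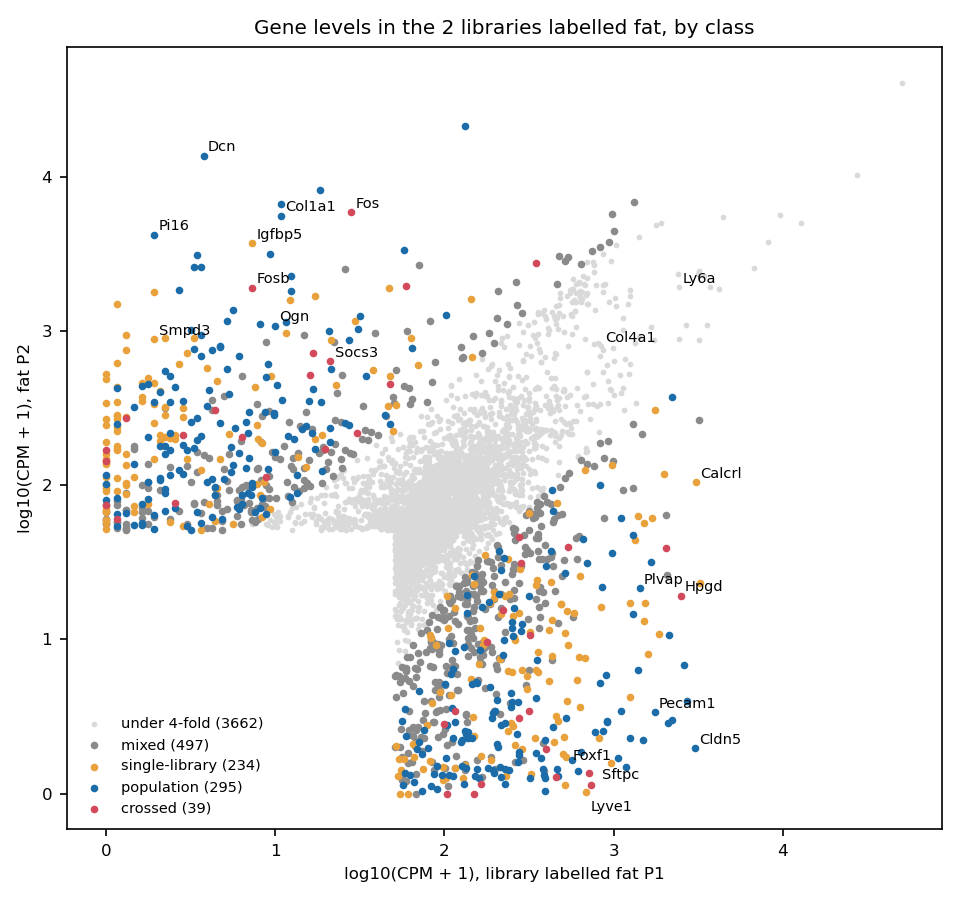
Each point is 1 of the 4727 genes compared, at log10(CPM + 1) in the fat-labelled P1 library on the horizontal axis and in fat P2 on the vertical axis, coloured by how the 4 libraries group. Population genes, 295 in all, and the 39 crossed genes both reach the far edges of the plot, and the 3662 genes under 4-fold form the pale grey cloud.

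To separate the sorted population from the organ, each called gene was placed by its levels in all 4 libraries. A population gene had both P1 libraries at least 4-fold above, or below, both P2 libraries. Of the calls, 144 (24.6%) on the P1 side and 151 (31.5%) on the P2 side were of this kind. A crossed gene had the fat-labelled P1 library and lung P2 together at least 4-fold above, or below, fat P2 and the lung-labelled P1 library. Of this kind were 19 (3.24%) of the calls on the P1 side and 20 (4.18%) on the P2 side. They made up 0.402% and 0.423% of the genes compared. A single-library gene was higher by 4-fold or more in the fat library in question than in each of the other 3, and there were 118 and 116 of them. The remaining 305 and 192 genes fell between these patterns and are called mixed. These patterns were defined with the fat ratio itself, so they sort the called genes and lend no support to them.

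The patterns need all 4 libraries. Without the lung-labelled P1 library, genes with the fat-labelled P1 library at least 4-fold above, or below, both P2 libraries numbered 360 and 236. Counted as crossed were then called genes with lung P2 at least 4-fold above, or below, fat P2 as well, 118 and 173. Without lung P2 the population genes, with both P1 libraries at least 4-fold above, or below, fat P2, numbered 280 and 327. Counted as crossed were then called genes with the fat-labelled P1 library at least 4-fold above, or below, the lung-labelled one, 187 and 98. Fewer libraries set fewer conditions, so these counts are larger than 144, 151, 19 and 20. They can take in single-library genes, and a gene can count under both patterns.

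Population genes on the P1 side were led by genes of endothelial cells. Plvap, which encodes the diaphragm protein of fenestrae and caveolae (ENSMUSG00000034845, GRCm38 chromosome 8, 71497765 to 71511752), was at 1429.9 CPM (1401 to 1459) in the fat-labelled P1 library and 20.6 (19.2 to 21.9) in fat P2, a 69.6-fold difference. In the lung-labelled P1 library it stood at 2869 CPM and in lung P2 at 42.5, so both P1 libraries lay far above both P2 libraries. Egfl7, a protein secreted by endothelial cells, stood at 2222, 1.996, 2538 and 80.4 CPM. Gpihbp1, which carries lipoprotein lipase to the capillary lumen, stood at 916, 1.95, 1263 and 27.8 CPM. Flt1, a VEGF receptor, stood at 914, 1.90, 903 and 46.4 CPM and hardly differed between the P1 libraries. Esam, an adhesion molecule of endothelial contacts, stood at 774, 1.49, 982 and 38.9 CPM. Sox18, a transcription factor of vessel formation, stood at 465, 0.436, 414 and 17.8 CPM. Tie1, the receptor related to Tie2, stood at 386, 0.321, 391 and 17.8 CPM, and Ushbp1 followed the same order with 379, 0.436, 468 and 10.1 CPM. In all 8 genes lung P2 lay above fat P2, and both lay below both P1 libraries. The order of the P2 libraries rested on few barcodes, since the top 15 of lung P2 held 77.8% of its endothelial marker UMIs. With only barcodes carrying mainly fibroblast markers, Plvap stood at 19.8 CPM in fat P2 and 4.39 in lung P2. The other genes were then near 0 in both, without a common order.

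Markers of the endothelium as a list gave the same picture in every member. Each of the 12 listed endothelial markers was higher by 4-fold or more in the fat-labelled P1 library, with a median log2 ratio of 5.95, and all 12 were population genes. Over the 8143 genes that reached 20 CPM on either side, the level used for lists, 8.02% were higher by 4-fold or more in P1 and 6.85% in P2, and the median was 0.34. Cldn5, the claudin of tight endothelial junctions (ENSMUSG00000041378, GRCm38 chromosome 16, 18776847 to 18778262), stood at 3028, 0.963, 1121 and 91.5 CPM. Cdh5, which encodes VE-cadherin, stood at 2098, 1.86, 918 and 81.7 CPM. Kdr, the main signalling receptor of VEGF, stood at 1308, 13.5, 742 and 48.97 CPM. The sum of the 12 markers was 14962, 116, 11320 and 635 CPM.

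Junction genes were mostly, but not all, on the P1 side. Of 20 measured genes of endothelial junctions, 14 were higher by 4-fold or more in P1 and 1 in P2, with a median log2 ratio of 3.203. Icam2, an adhesion molecule of endothelial and blood cells, stood at 1190.0, 0.482, 510.4 and 43.6 CPM. Ctnna1, the catenin that joins cadherins to actin, stood at 515, 111, 208 and 182 CPM and passed 4-fold with a log2 ratio of 2.12 that was 1.63 with TMM scaling. Ctnnb1, the other catenin of the complex, stood at 268, 139, 273 and 128 CPM and was within 2-fold. Gja1, a gap junction connexin, was the member on the P2 side, with 18.7, 171, 129.6 and 12.4 CPM, and was high in fat P2 and in the lung-labelled P1 library.

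Endothelial transcription factors split between shared and P1-side genes. Of 26 measured, 15 were higher by 4-fold or more in P1 and 1 in P2, with a median log2 ratio of 2.48. Sox17, which specifies arteries, stood at 211, 0.482, 248 and 6.70 CPM. Gata2, which keeps the endothelial programme, stood at 514, 0.138, 91.2 and 23.7 CPM, with the fat-labelled P1 library far above the other P1 library. Epas1, an oxygen-regulated hypoxia factor, stood at 3229, 22.2, 625 and 263 CPM and was highest in the fat-labelled P1 library as well. Ets1 stood at 470.0, 11.8, 246 and 119 CPM. Klf2, the flow-responsive factor, did not separate the populations in fat, with 1338, 829.6, 1824 and 107 CPM. Mef2c, at 192, 103, 405 and 94.8 CPM, and Foxo1, at 126, 95.1, 84.03 and 105 CPM, also lay within 2-fold, and the ratio of Foxo1 changed sign with TMM scaling.

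Genes of caveolae and transcellular transport were mostly on the P1 side, with 13 of 24 measured members higher by 4-fold or more in P1, 2 in P2 and a median log2 ratio of 3.69. Aqp1, the water channel of capillaries, stood at 1390.3, 5.37, 1817 and 188 CPM. Cd36, a fatty acid carrier, stood at 2119, 9.75, 1218 and 106 CPM. Cav1, the coat protein of caveolae, stood at 1672, 30.9, 1097 and 204 CPM, and Cav2 at 906, 4.86, 389 and 54.1 CPM. The further caveolar genes Cavin1 and Ehd2 did not follow them, with 506, 405, 631 and 298 CPM and 287, 162, 399 and 214 CPM. Lrp1, a large endocytic receptor, lay on the other side with 5.07, 692, 16.98 and 999 CPM. Lpl, the lipase that Gpihbp1 carries, stood at 338, 1147, 133 and 115 CPM, higher in fat P2 but under 4-fold.

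**Figure D2:**
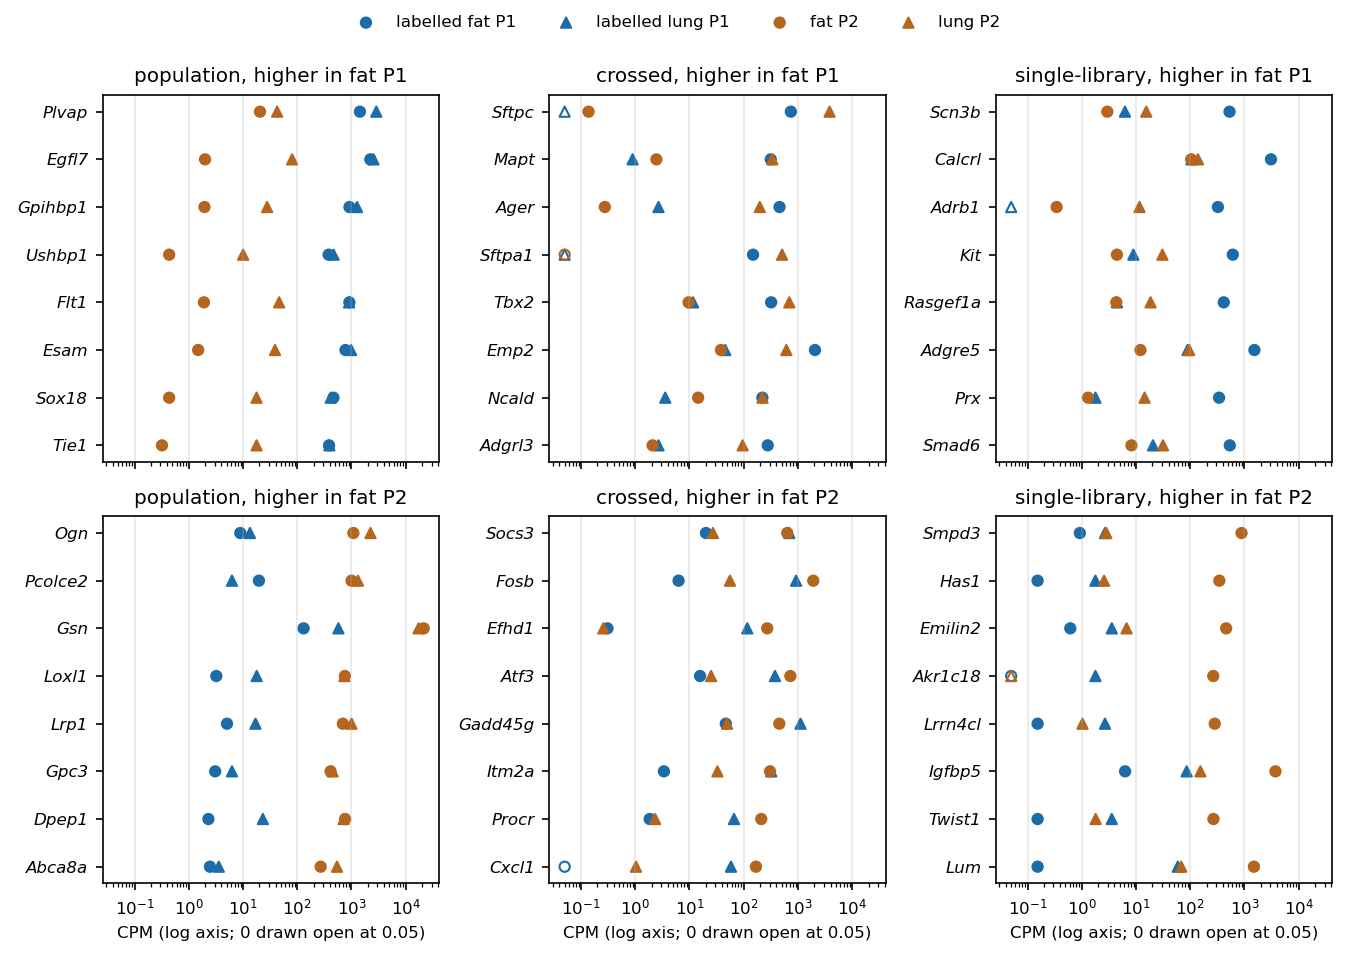
CPM on a log axis in the 4 libraries for the 8 leading genes of each pattern and side, with circles for the libraries labelled fat, triangles for those labelled lung, blue for P1 and orange for P2, and open symbols at the left edge for 0. Colours separate in the population panels, whereas in the crossed panels each circle of one colour sits with the triangle of the other, as for Sftpc at 738 and 3824 CPM against 0.138 and 0.

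Promoters of a pair of population genes from the P1 side are shown because they hold, or lack, the letters CAGGAAG, a common form of the site of ETS factors, the transcription factor family that includes Ets1. Each window runs from 250 bases before to 50 bases after the RefSeq transcription start on GRCm38.p6, 5′ to 3′ on the gene's strand, with matches on either strand to any of the motifs searched in capitals. The motifs were CCGGAAG besides CAGGAAG for ETS factors, TGANTCA for AP-1, TGACGT for a cyclic AMP response element, GGGCGG for a GC box, TATAAA for a TATA box, TGTTTAC for forkhead factors and an EBF motif. Neighbouring matches can overlap, as where a palindromic response element matches on both strands. Egfl7 (chr2:26580833-26581132, plus strand) holds 2 matches to CAGGAAG, 1 of them on the reverse strand. Flt1 (chr5:147725962-147726261, minus strand) holds none and has GC boxes, a response element and a TATA box.
Egfl7: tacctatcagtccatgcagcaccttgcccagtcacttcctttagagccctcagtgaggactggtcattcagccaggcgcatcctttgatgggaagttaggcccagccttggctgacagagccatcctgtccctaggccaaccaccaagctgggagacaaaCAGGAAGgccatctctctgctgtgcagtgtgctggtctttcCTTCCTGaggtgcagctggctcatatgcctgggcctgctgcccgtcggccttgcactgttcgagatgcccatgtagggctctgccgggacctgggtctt
Flt1: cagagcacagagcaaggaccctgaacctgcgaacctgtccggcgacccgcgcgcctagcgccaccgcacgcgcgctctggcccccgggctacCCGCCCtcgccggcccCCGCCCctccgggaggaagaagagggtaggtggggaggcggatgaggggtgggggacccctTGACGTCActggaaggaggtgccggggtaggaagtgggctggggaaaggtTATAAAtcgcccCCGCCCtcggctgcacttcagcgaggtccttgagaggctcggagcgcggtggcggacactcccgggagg
CAGGAAG was found in 22 of the 97 population genes of the P1 side that had a promoter window (22.7%, 14.8 to 32.3), in 17.5% (10.7 to 26.2) of the 103 on the P2 side, in 11.6% of 3707 genes compared and in 13.0% of all 27025 windows. CCGGAAG was found in 6.19% and 1.94% of the P1 and P2 population genes and in 17.5% of genes compared. A match describes letters in the window and does not show a bound site.

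Population genes on the P2 side were led by genes of the extracellular matrix. Ogn, the small leucine-rich proteoglycan osteoglycin (ENSMUSG00000021390, GRCm38 chromosome 13, 49608046 to 49624501), was at 8.91 CPM (6.76 to 11.5) in the fat-labelled P1 library and 1083 (1073 to 1093) in fat P2, a 122-fold difference. In the libraries labelled lung it stood at 13.4 CPM in P1 and 2238 in P2. Pcolce2, an enhancer of procollagen cleavage, stood at 19.7, 1001, 6.26 and 1316 CPM. Loxl1, which cross-links elastin, stood at 3.23, 754, 17.9 and 740.5 CPM. Gsn, the actin-severing protein gelsolin, stood at 131, 21454, 574 and 17242 CPM. With only barcodes carrying markers of their own population, it stood at 16.4 CPM in the fat-labelled P1 library and 572 in the lung-labelled one. Gpc3, a cell-surface heparan sulfate proteoglycan, stood at 3.07, 411, 6.26 and 448 CPM. Dpep1, a membrane dipeptidase, stood at 2.30, 763, 23.2 and 715 CPM, and Abca8a, a lipid transporter, at 2.46, 270.4, 3.58 and 541 CPM. In each of these genes both P2 libraries lay at least 4-fold above both P1 libraries.

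Each of the 12 fibroblast markers was higher in fat P2 by 4-fold or more, with a median log2 ratio of -7.53, and 10 of them were population genes. Dcn, the collagen-binding proteoglycan decorin (ENSMUSG00000019929, GRCm38 chromosome 10, 97479609 to 97518143), stood at 2.76, 13747, 298 and 1417 CPM. Its level in lung P2 was far below that in fat P2, and in the lung-labelled P1 library it was above that of the fat-labelled P1 library. The sums of the 12 markers were 61.9, 45970.0, 1175 and 13418 CPM, so fibroblast RNA made up a larger part of the lung-labelled P1 library than of the one labelled fat P1.

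Fibrillar and network collagens were mostly on the P2 side, while the main basement membrane chains did not differ by 4-fold. Of 18 measured fibrillar and network collagens 13 were higher by 4-fold or more in P2 and 0 in P1, with a median log2 ratio of -4.86. Col1a1 stood at 9.83, 5600.3, 156 and 2400.0 CPM, Col1a2 at 9.83, 6623, 144 and 2416 CPM and Col3a1 at 17.4, 8212, 229.7 and 2959 CPM. Col6a1, a chain of the microfibrillar collagen VI, stood at 7.07, 1116, 36.7 and 890.0 CPM. Col15a1, found at basement membranes, stood at 7.37, 282, 245 and 70.6 CPM and was nearly as high in the lung-labelled P1 library as in fat P2. Col4a1 and Col4a2, the main chains of basement membrane, lay within 2-fold, with 846, 797, 903 and 503 CPM and 453, 377, 594 and 286 CPM, and the signs of both ratios changed with TMM scaling. The enzymes of collagen processing had 13 of 23 higher by 4-fold or more in P2, 0 in P1 and a median log2 ratio of -2.27. Pcolce stood at 4.15, 567, 66.2 and 414 CPM and Adamts2, the procollagen N-proteinase, at 1.84, 351, 8.94 and 229 CPM, whereas the general folding enzymes P4hb and Ppib stood at 182, 354, 223 and 324 CPM and 292, 639.6, 381 and 267 CPM.

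Of 31 measured proteoglycans and matrix glycoproteins 24 were higher by 4-fold or more in P2 and 0 in P1, with a median log2 ratio of -3.89. Fn1, fibronectin, stood at 8.29, 3179.8, 218 and 1321 CPM. Mfap5, a protein of elastic microfibrils, stood at 1.69, 1852, 39.3 and 349 CPM. Eln, elastin, was a member under 4-fold, at 166, 656, 377 and 2582 CPM, and was highest in lung P2. Sparcl1 was under 4-fold as well, at 172, 379, 1215 and 1852 CPM.

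Secreted proteases and inhibitors were mostly on the P2 side, and the measured complement genes were there without exception. Of 25 measured proteases and inhibitors 16 were higher by 4-fold or more in P2 and 1 in P1, with a median log2 ratio of -3.22. Mmp2, a gelatinase, stood at 4.61, 1364, 23.2 and 531 CPM and Serping1, the C1 inhibitor, at 11.4, 2275, 100.1 and 1428 CPM. Cst3, cystatin C, did not differ by 2-fold, at 867, 756, 4421 and 2282 CPM. All 9 measured complement genes were higher by 4-fold or more in P2, with a median log2 ratio of -4.73. C3 stood at 2.46, 3104, 76.9 and 964 CPM, C1s1 at 2.61, 687, 50.1 and 377 CPM and C4b at 0.922, 344, 17.9 and 358 CPM, with both P2 libraries above both P1 libraries for all 3.

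Promoters of 2 collagen genes of the P2 side are shown because the genes were high together and their windows share none of the motifs searched. Col1a2 (chr6:4505368-4505667, plus strand) holds 2 GC boxes and Col3a1 (chr1:45311288-45311587, plus strand) holds 1 TATA box, and the GC content of the windows was 61% and 37.7%.
Col1a2: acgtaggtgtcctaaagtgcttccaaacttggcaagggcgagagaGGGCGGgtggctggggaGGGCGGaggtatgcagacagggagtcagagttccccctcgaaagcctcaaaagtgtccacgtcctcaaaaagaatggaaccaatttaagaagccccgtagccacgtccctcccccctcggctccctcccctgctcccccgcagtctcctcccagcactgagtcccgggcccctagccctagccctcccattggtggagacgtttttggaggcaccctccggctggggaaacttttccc
Col3a1: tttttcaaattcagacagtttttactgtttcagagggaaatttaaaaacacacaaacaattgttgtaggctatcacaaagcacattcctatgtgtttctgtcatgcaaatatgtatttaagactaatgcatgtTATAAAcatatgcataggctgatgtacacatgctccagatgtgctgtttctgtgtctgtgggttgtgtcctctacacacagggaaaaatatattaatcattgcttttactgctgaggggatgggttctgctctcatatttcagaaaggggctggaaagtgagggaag
A TATA box was found in 15.5% (9.15 to 24) of the population genes of the P2 side and in 9.28% of those of the P1 side, in 7.58% of genes compared and in 14.2% of all windows. GC boxes were found in 59.2% and 53.6% of them, and in 69.6% of genes compared.

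Single barcodes showed 2 nearly separate kinds of cell. After each barcode was thinned to 2000 UMIs, which left 1491 barcodes of the fat-labelled P1 library and 7191 of fat P2 and dropped 457 and 707 shallower ones, the 12 endothelial markers had a median of 30 UMIs in the first library and 0 in the second. The 12 fibroblast markers had medians of 0 and 84. At least 3 UMIs of endothelial markers and fewer of fibroblast markers were found in 97.7% of fat-labelled P1 barcodes, and the reverse in 98.6% of fat P2. Barcodes with at least 3 UMIs of both lists made up 0.201% and 0.515%. In the lung-labelled P1 library 46.3% of 164 barcodes had both, with a median of 2 fibroblast UMIs. Plvap was seen in 67.4% (64.96 to 69.8) of fat-labelled P1 barcodes and 3.32% of fat P2, and without thinning in 70.7% and 8.09%. Dcn, which endothelial cells should lack, was seen in 0.671% (0.322 to 1.23) of fat-labelled P1 barcodes and in 99.1% of fat P2, at median depths of 2964 and 5151.5 UMIs before thinning.

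**Figure D3:**
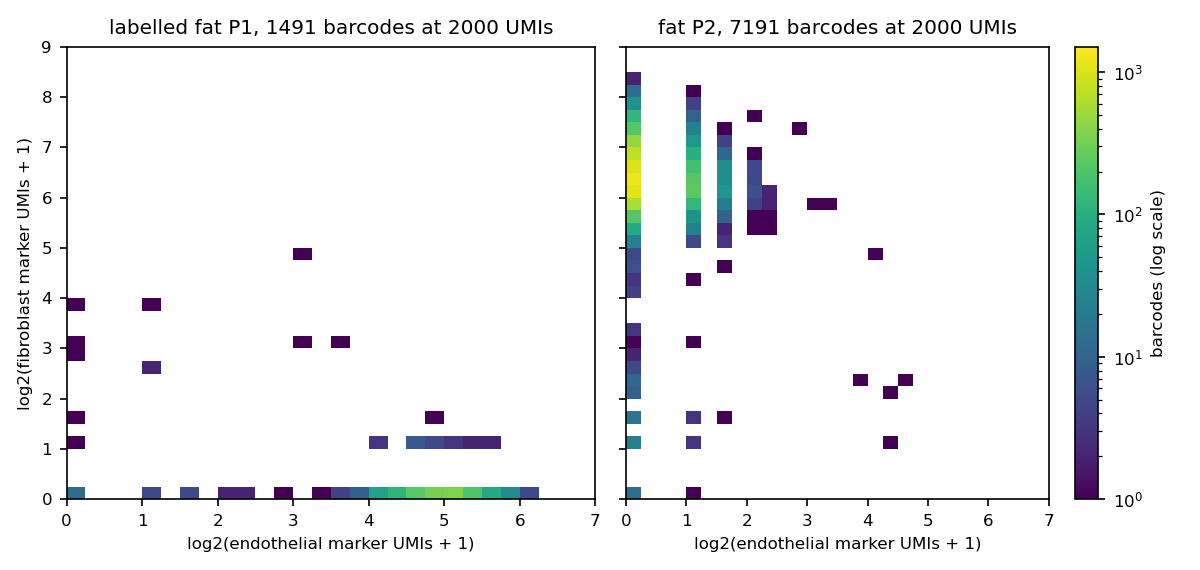
Barcodes thinned to 2000 UMIs, binned by log2(UMIs + 1) of the 12 endothelial markers (horizontal) and the 12 fibroblast markers (vertical), with the number of barcodes per bin in colour on a log scale. Nearly all 1491 fat-labelled P1 barcodes lie along the bottom and nearly all 7191 of fat P2 along the left side, with few in between.

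Crossed genes on the P1 side included genes known from lung, high in the fat-labelled P1 library and in lung P2 and low in fat P2 and the lung-labelled P1 library. Hpgd, the enzyme that degrades prostaglandins, stood at 2499, 18.2, 2.68 and 141 CPM. Its lung P2 level came from few barcodes, since the top 15 held 89.8% of its UMIs. With only barcodes carrying markers of their own population, it stood at 3.51 CPM in lung P2 and 3.07 in the lung-labelled P1 library. Foxf1, needed for the growth of lung capillaries (ENSMUSG00000042812, GRCm38 chromosome 8, 121084386 to 121088144), stood at 716, 0.367, 3.58 and 63.9 CPM. Emp2, a membrane protein of lung capillaries and epithelium, stood at 2054, 38.01, 45.6 and 611 CPM. Tbx2, a T-box factor of lung mesenchyme, stood at 320.0, 9.63, 11.6 and 692 CPM. Hoxa5, a homeobox gene needed in the developing lung, stood at 178, 8.62, 25.9 and 161 CPM. Mapt, which encodes tau, stood at 315, 2.45, 0.894 and 335 CPM, with the fat-labelled P1 library and lung P2 close together. The remaining leading genes were Ncald at 221, 14.4, 3.58 and 222 CPM and Adgrl3 at 277, 2.09, 2.68 and 95.4 CPM. For these 8 genes the fat-labelled P1 library was above fat P2 and the lung-labelled P1 library was below lung P2. The P1 to P2 difference thus had opposite signs under the fat and lung labels, which the definition of the pattern requires.

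Epithelial genes of the lung were among them. Sftpc, surfactant protein C (ENSMUSG00000022097, GRCm38 chromosome 14, 70520949 to 70524081), was at 738 CPM (718 to 759.5) in the fat-labelled P1 library, 0.138 (0.0505 to 0.300) in fat P2, 0 in the lung-labelled P1 library and 3824 in lung P2. Ager, a marker of flat alveolar epithelium, stood at 457, 0.275, 2.68 and 197 CPM. Sftpa1, surfactant protein A, stood at 149, 0, 0 and 509 CPM. Hopx stood at 400.1, 0.940, 7.15 and 68.8 CPM and Cldn18 at 103, 0, 0 and 46.9 CPM. Of 12 measured lung epithelial genes 6 were higher by 4-fold or more in the fat-labelled P1 library and 0 in fat P2, with a median log2 ratio of 2.08, and the list summed to 2057, 90.9, 479 and 5143 CPM.

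Lung vessel genes lay almost wholly in endothelial barcodes of the fat-labelled P1 library, whereas lung epithelial genes differed among themselves. Of its 1491 thinned barcodes 1456 had at least 5 UMIs of the endothelial markers and 35 had fewer. Foxf1 was seen in 72.0% (69.7 to 74.3) of the first and in 0 of the 35 (exact interval up to 10.0%). Hpgd was seen in 92.9% (91.4 to 94.1) of the first and 2.86% of the others. The same lung vessel genes were thus found in most endothelial barcodes of this library, while fibroblasts of fat P2 carried Foxf1 in 0.0278% and Hpgd in 3.198% of barcodes. Ager was concentrated in the 35 barcodes with few endothelial UMIs, where 57.1% (39.4 to 73.7) had it and where 88.2% of its thinned UMIs lay. Sftpc was spread more widely, being seen in 23.97% (21.8 to 26.2) of the endothelial barcodes, which held 51.4% of its thinned UMIs, and in 34.3% of the others. Hopx was seen in 33.2% (30.8 to 35.7) of the 1456 endothelial barcodes and in 62.9% (44.9 to 78.5) of the 35 others. Endothelial barcodes held 81.8% of its thinned UMIs because they were many, with a mean of 0.536 UMIs per barcode against 4.97 in the others. Emp2 had 95.2% of its thinned UMIs in endothelial barcodes and was seen in 52.3% of them and 77.1% of the others. Its mean was likewise lower in them, at 3.51 against 7.34 UMIs per barcode. Most Sftpc UMIs still came from few barcodes, since the top 20 held 81.8% and a single one had 3834. When only barcodes with markers of their own population were summed, Sftpc stood at 150.02, 0.139, 0 and 1028.5 CPM and Ager at 178, 0.277, 3.07 and 10.8, so their levels fell, while Foxf1 stood at 742 and Hpgd at 2588 CPM in the fat-labelled P1 library. In lung P2 Foxf1 then stood at 40.6 CPM and Hpgd at 3.51. The 825 barcodes left out of this library only for mitochondrial UMIs held Sftpc at 6379 CPM and Ager at 506, against 512 for Foxf1 and 1674 for Hpgd. What the left-out barcodes contribute to these levels was not tested beyond these values.

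The wider list of lung vessel and mesenchyme genes showed both kinds of pattern. Of 19 measured, 12 were higher by 4-fold or more in the fat-labelled P1 library and 2 in fat P2, with a median log2 ratio of 2.71. Among them 4 were crossed, 4 were single-library genes and 3 followed the population. Car4, the carbonic anhydrase of lung capillaries, stood at 969, 0.573, 83.1 and 33.8 CPM and Apln, the peptide apelin, at 146, 2.16, 8.94 and 4.38 CPM, both highest in the fat-labelled P1 library. Ednrb, the endothelin B receptor, followed the population with 614, 0.390, 162 and 31.96 CPM. Wnt2, a ligand of lung mesenchyme, was on the P2 side of both pairs, at 1.23, 179, 0.894 and 121 CPM. Inmt, at 47.003, 206, 7.15 and 4929 CPM, and Limch1, at 122, 110.2, 75.1 and 2311 CPM, were highest in lung P2 and did not separate the libraries labelled fat by 4-fold. With only barcodes carrying markers of their own population, Inmt did separate them, at 0.637 and 207 CPM and a log2 ratio of -4.35. The sum over the list was 11846, 1163, 1263 and 16790.0 CPM, with the fat-labelled P1 library beside lung P2.

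Genes known from vessels and stroma of fat were compared in the same way. Of 12 measured, 3 were higher by 4-fold or more in the fat-labelled P1 library and 4 in fat P2, with a median log2 ratio of -0.59. All 22 listed genes summed to 3652, 2641, 19887 and 2625 CPM, so that fat P2 and lung P2 were close together and the lung-labelled P1 library was highest. Such a sum can rest on few genes, and the share of each gene in it was not counted. Cd300lg, a capillary receptor, stood at 54.99, 1.97, 590.0 and 0.258 CPM and was highest in the lung-labelled P1 library. Apoe stood at 59.1, 999, 1113 and 2164 CPM and was lowest in the fat-labelled P1 library. Hox genes, which mark position along the body, were split too. Hoxb5 stood at 64.1, 4.01, 36.7 and 66.2 CPM, again with the fat-labelled P1 library beside lung P2. Hoxc8 stood at 65.7 CPM in fat P2 and at 0 in each of the other 3 libraries, where the counts allow up to 0.461, 2.68 and 0.773 CPM in the fat-labelled P1 library, the lung-labelled P1 library and lung P2. Hoxc6, at 0, 48.1, 3.58 and 0.515 CPM, and Hoxc9, at 0, 42.04, 0.894 and 0 CPM, were likewise almost limited to fat P2. All 3 Hoxc genes had 0 UMIs in the fat-labelled P1 library.

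Of the 20 crossed genes on the P2 side 7 were on the list of immediate early genes, which cells switch on within minutes of a stimulus and which also respond to cell isolation. Fos (ENSMUSG00000021250, GRCm38 chromosome 12, 85473890 to 85477273) was at 27.03 CPM (23.2 to 31.3) in the fat-labelled P1 library and 5906 (5883 to 5929) in fat P2, 218-fold apart, and at 3721 in the lung-labelled P1 library and 689 in lung P2. Fosb stood at 6.30, 1913, 923 and 55.7 CPM. Junb stood at 58.2, 1953, 2903 and 403 CPM. Atf3, a stress-responsive factor, stood at 15.7, 723, 376 and 25 CPM. Socs3, an inhibitor of cytokine signalling, stood at 20.1, 634, 692 and 27.1 CPM and Gadd45g, a stress sensor, at 46.7, 453, 1113 and 49.2 CPM. By the definition of the pattern, fat P2 and the lung-labelled P1 library were high for all 6 and the remaining pair was low. Egr1 missed this pattern, at 24.9, 2532, 1348 and 907 CPM, because lung P2 was not 4-fold below the lung-labelled P1 library.

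Of 24 measured immediate early genes 12 were higher by 4-fold or more in fat P2 and 0 in the fat-labelled P1 library, with a median log2 ratio of -2.26, and 7 of them were crossed. Their sum was 5314, 29564, 28283 and 7310 CPM. Ier3 and Ier5 did not follow, at 132, 113, 755 and 29.9 CPM and 115, 110.1, 279 and 96.6 CPM, and the signs of both ratios changed with TMM scaling. Fos was seen in 1.68% (1.09 to 2.47) of thinned fat-labelled P1 barcodes, 91.7% (91.02 to 92.3) of fat P2, 98.2% of the lung-labelled P1 ones and 36.8% of lung P2, and in 2.67%, 94.4%, 99.4% and 37.4% unthinned. Fos UMIs were thus spread over most fat P2 barcodes and absent from most of the fat-labelled P1 ones. Of the heat shock genes, 3 of 12 were higher by 4-fold or more in fat P2 and 0 in P1, with a median log2 ratio of -1.06. Dnajb1, a cochaperone, was crossed, at 29.2, 217, 252 and 34.3 CPM. Hspa1a, an inducible chaperone whose reads can be split with its near-identical copy Hspa1b, stood at 190.3, 612, 2473 and 167 CPM.

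Cytoplasmic ribosomal genes moved together with the same pair of libraries. All 24 measured were lower in the fat-labelled P1 library, and 4 of them passed 4-fold, within a log2 range of -2.38 to -1.12 and with a median of -1.59. Rps29 stood at 1312, 6852, 4000.4 and 1699.7 CPM and Rps27 at 934, 3787, 3855 and 1184 CPM. Rplp0, at 465, 2008, 1613 and 419.8 CPM, lay at the size of a call, with a log2 ratio of -2.09, and ribosomal genes have many processed copies that can take part of their reads. The sum of the 24 genes was 14969, 49776, 56289 and 16190.0 CPM, which puts the fat-labelled P1 library beside lung P2. At 2000 UMIs per barcode their median was 26, 100, 116 and 24 UMIs, and that of the immediate early genes 10, 52, 56 and 11. With 1 library for each population and tissue, organ and library cannot be told apart for this pattern.

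**Figure D4:**
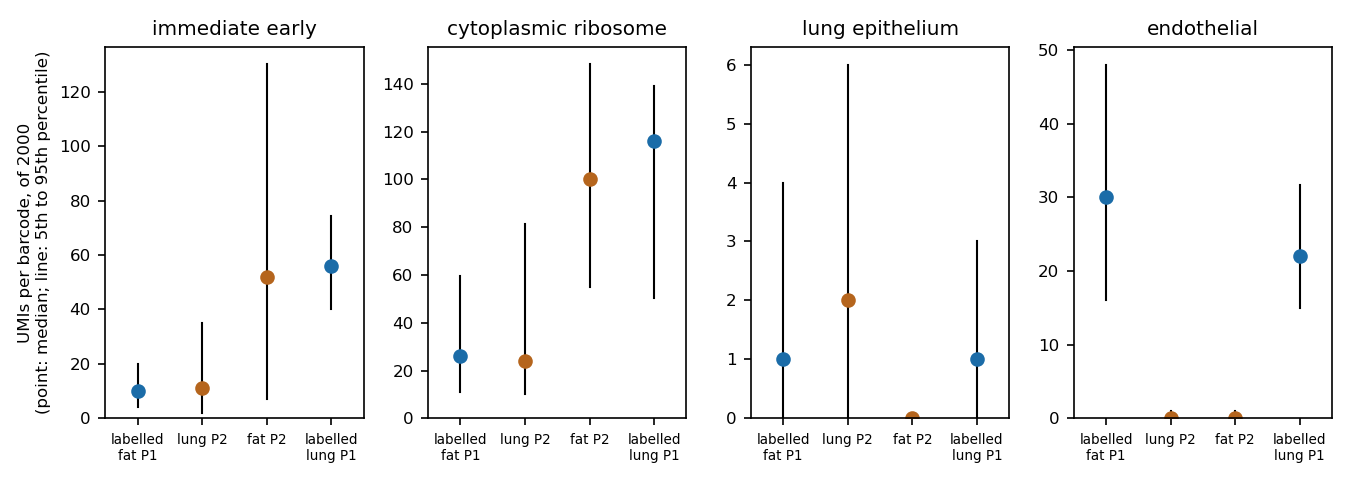
UMIs of 4 gene lists per barcode thinned to 2000 UMIs, with the median as a point and the 5th to 95th percentile as a line, for the 4 libraries ordered with the fat-labelled P1 library beside lung P2. Immediate early and ribosomal UMIs are low in that pair and high in fat P2 and the lung-labelled P1 library, whereas endothelial UMIs, with medians of 30 and 22 in P1 and 0 in P2, follow the sorted population.

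Promoters of a pair of crossed immediate early genes are shown because both hold TGACGT, bound by CREB and related factors. Fos (chr12:85473640-85473939, plus strand) also holds a GC box and a TATA box, and Atf3 (chr1:191183284-191183583, minus strand) holds GC boxes.
Fos: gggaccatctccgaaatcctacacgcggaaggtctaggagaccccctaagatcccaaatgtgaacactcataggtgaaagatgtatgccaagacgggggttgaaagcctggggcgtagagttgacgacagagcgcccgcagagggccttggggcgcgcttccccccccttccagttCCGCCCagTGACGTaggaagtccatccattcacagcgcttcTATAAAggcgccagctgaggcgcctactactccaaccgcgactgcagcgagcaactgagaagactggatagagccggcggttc
Atf3: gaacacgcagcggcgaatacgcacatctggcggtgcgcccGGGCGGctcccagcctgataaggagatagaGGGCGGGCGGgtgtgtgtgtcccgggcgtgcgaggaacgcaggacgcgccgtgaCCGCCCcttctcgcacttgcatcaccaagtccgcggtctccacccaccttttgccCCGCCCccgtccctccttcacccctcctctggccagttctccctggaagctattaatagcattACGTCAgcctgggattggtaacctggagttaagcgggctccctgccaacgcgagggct
TGACGT was found in 4 of the 18 crossed genes of the P2 side that had a window (22.2%, 6.41 to 47.6), in 1 of 13 on the P1 side, in 13.2% of genes compared and in 7.65% of all windows. TGANTCA was found in 11.1% of the 18 and 4.91% of genes compared. The intervals are wide because few genes are crossed.

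Further crossed genes of the P2 side included genes with other known roles. Efhd1, a mitochondrial calcium-binding protein, stood at 0.307, 271, 116 and 0.258 CPM and was seen in 0.134% and 36.5% of thinned barcodes of the fat-labelled P1 library and fat P2. Procr, the endothelial protein C receptor by name, was lower in the endothelial library labelled fat P1 than in fat P2, at 1.84, 210.3, 66.2 and 2.32 CPM. Itm2a, a membrane protein, stood at 3.38, 305, 322 and 32.7 CPM. Cxcl1, a chemokine for neutrophils, stood at 0, 168, 58.1 and 1.03 CPM, and Ackr1, the atypical chemokine receptor of venules, at 0.154, 59.04, 49.2 and 0.515 CPM. For all 5 the lung-labelled P1 library lay above lung P2, by the definition of the pattern.

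Genes confined in level to the fat-labelled P1 library named several receptors. Calcrl, the receptor of adrenomedullin and CGRP (ENSMUSG00000059588, GRCm38 chromosome 2, 84330626 to 84425411), was at 3074 CPM (3032 to 3117) against 104 (101 to 107) in fat P2, 105 in the lung-labelled P1 library and 139 in lung P2. It was seen in 94.5% of thinned fat-labelled P1 barcodes, 17.5% of fat P2, 14.6% of the lung-labelled P1 ones and 6.17% of lung P2. Adrb1, a beta adrenergic receptor, stood at 324, 0.344, 0 and 11.6 CPM. Kit, the receptor of stem cell factor, stood at 609, 4.45, 8.94 and 30.7 CPM and was seen in 57.1% and 0.515% of fat-labelled P1 barcodes and fat P2. Lyve1, a hyaluronan receptor best known from lymphatic vessels, stood at 689, 0.0229, 66.2 and 40.98 CPM, from 4484 and 1 UMIs in the fat-labelled P1 library and fat P2. Adgre5, the adhesion receptor CD97, stood at 1523, 12.1, 89.4 and 95.6 CPM. Scn3b, a sodium channel subunit, stood at 530.2, 2.96, 6.26 and 15.5 CPM. Smad6, an inhibitor of BMP signalling, stood at 536, 8.26, 20.6 and 31.4 CPM. Prx, a PDZ domain protein, stood at 339.8, 1.31, 1.79 and 14.4 CPM and Rasgef1a at 415, 4.33, 4.47 and 18.6 CPM. By the definition of the pattern the lung-labelled P1 library lay at least 4-fold below the fat-labelled P1 library in each, although for Lyve1 and Adgre5 it still lay more than 4-fold above fat P2, with log2 ratios of 2.93 and 2.17.

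Fat P2 had its own single-library genes. Smpd3, a neutral sphingomyelinase (ENSMUSG00000031906, GRCm38 chromosome 8, 106252548 to 106337988), stood at 0.922, 882, 2.68 and 2.83 CPM and was seen in 57.1% of thinned fat P2 barcodes and 0.0671% of the fat-labelled P1 ones. Has1, a hyaluronan synthase, stood at 0.154, 344, 1.79 and 2.58 CPM. Akr1c18, a progesterone-metabolising enzyme, stood at 266 CPM in fat P2 and had 0 UMIs in the fat-labelled P1 library, which makes it at least 577-fold higher against 3 counts. Igfbp5, a secreted IGF-binding protein, stood at 6.30, 3725, 85.8 and 154 CPM. Emilin2, an elastic fibre glycoprotein, stood at 0.614, 459, 3.58 and 6.70 CPM and Lrrn4cl at 0.154, 283, 2.68 and 1.03 CPM. Twist1, a mesenchymal transcription factor, stood at 0.154, 268, 3.58 and 1.80 CPM, and Lum, the proteoglycan lumican, at 0.154, 1492, 59 and 68.3 CPM. Lung P2 lay at least 4-fold below fat P2 for each of them, by the definition of the pattern.

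Adipose progenitor genes were spread over these patterns. Of 18 measured, 9 were higher by 4-fold or more in fat P2 and 1 in the fat-labelled P1 library, with a median log2 ratio of -2.01. Pi16, a secreted protein of interstitial fibroblasts, stood at 0.922, 4218, 34.9 and 204 CPM and followed the population. Ebf2, a transcription factor of adipose progenitors, stood at 0, 243, 4.47 and 3.61 CPM and was a single-library gene of fat P2. Il33, an alarmin of stromal cells, stood at 1.38, 202, 6.26 and 17.01 CPM. Dpp4, a surface peptidase of the same progenitors, was not 4-fold apart, at 209.5, 559, 3.58 and 11.1 CPM, and was low in both libraries labelled lung. Sema3c stood at 1005, 641, 4.47 and 72.7 CPM and was likewise present in both libraries labelled fat and low in those labelled lung. Of 19 mesenchymal transcription factors measured, 11 were higher by 4-fold or more in fat P2 and 0 in P1, with a median log2 ratio of -2.26. Prrx1, a homeobox factor of mesenchyme, stood at 1.23, 550.1, 8.94 and 87.9 CPM. Zeb1 and Zeb2, factors named for epithelial to mesenchymal change, were within 2-fold at 233, 201, 50.1 and 140.2 CPM and 216, 356, 16.1 and 672 CPM, and the sign of Zeb1 changed with TMM scaling.

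**Figure D5:**
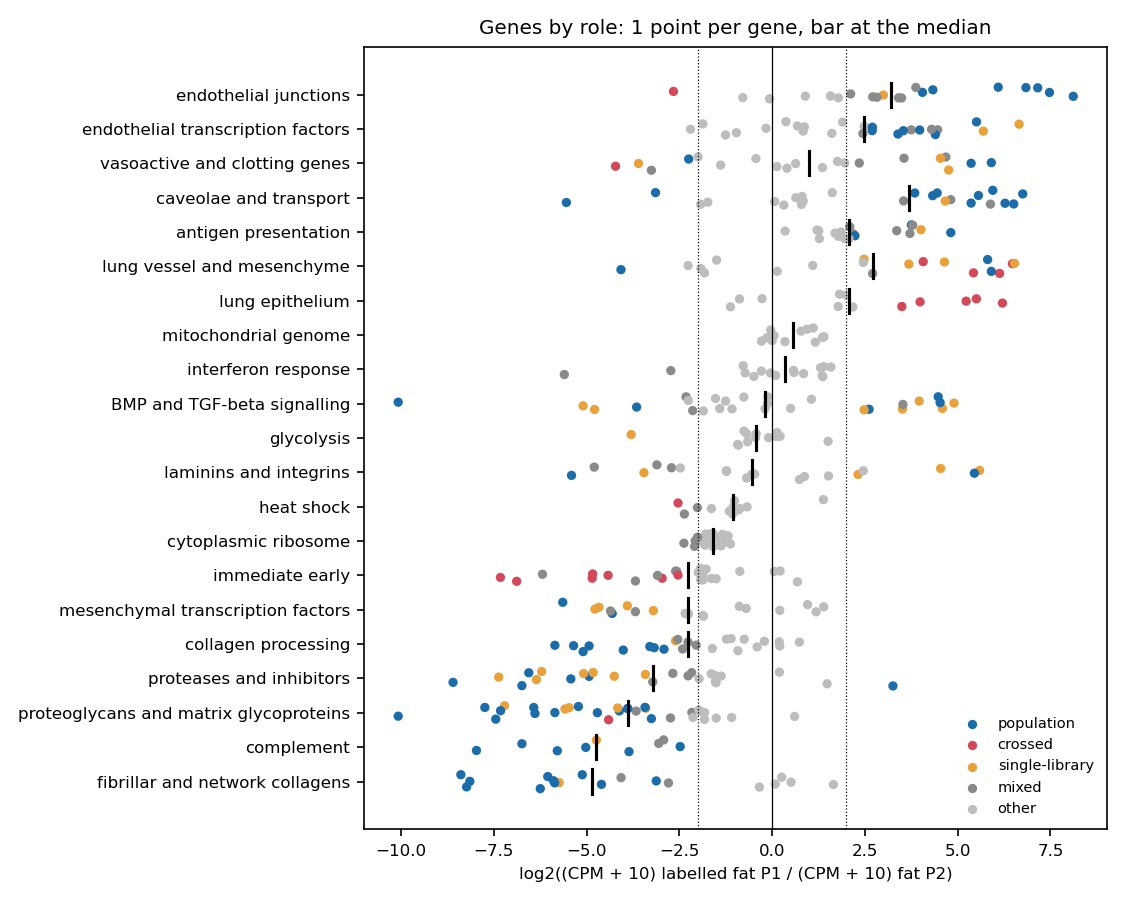
The log2 ratio of (CPM + 10) in the fat-labelled P1 library over fat P2, 1 point per measured gene, in lists by role with bars at the medians and dotted lines at 4-fold. Colours give the pattern over the 4 libraries, and pale grey points past 4-fold are genes under 50 CPM. Junction genes (median 3.203) and fibrillar collagens (-4.86) lie at opposite ends, with blue population genes at both, and the red crossed genes gather among lung genes and immediate early genes.

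Signalling of the TGF-beta and BMP family went both ways. Of 27 measured genes 9 were higher by 4-fold or more in the fat-labelled P1 library and 7 in fat P2, with a median log2 ratio of -0.19. Acvrl1, a BMP receptor of endothelium, stood at 1683, 60.3, 291 and 165 CPM and Bmp6, a ligand, at 349, 21.5, 53.6 and 19.1 CPM, both highest in the fat-labelled P1 library. Fst, the activin antagonist follistatin, stood at 0.307, 274, 14.3 and 12.1 CPM and its relative Fstl1 at 45.8, 1893, 101 and 382 CPM, both highest in fat P2. Id3, a target of BMP receptors, stood at 707, 334, 1170.2 and 257 CPM and Tgfbr3, the coreceptor betaglycan, at 141, 309.9, 108 and 353 CPM, without a 4-fold difference.

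Laminins and integrins divided by role as well. Of 19 measured, 5 were higher by 4-fold or more in P1 and 6 in P2, with a median log2 ratio of -0.55. Itga1, a collagen-binding integrin, stood at 1254, 16.2, 205 and 161 CPM and Itga6, a laminin-binding one, at 519.6, 2.11, 271 and 29.1 CPM. Itga3 stood at 229.8, 0.298, 43.8 and 22.4 CPM. On the P2 side Lama2 stood at 0.614, 439.6, 8.05 and 256 CPM and Lamb1 at 3.99, 378, 99.2 and 429 CPM. The shared subunit Itgb1 was within 2-fold, at 609, 328, 329 and 505 CPM.

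Genes of vessel tone and clotting were divided too, with 7 of 20 higher by 4-fold or more in P1, 4 in P2 and a median log2 ratio of 0.997. Vwf, the von Willebrand factor, stood at 262, 0.596, 422 and 79.4 CPM. Nostrin, which binds endothelial nitric oxide synthase, stood at 346, 5.34, 27.7 and 50.3 CPM. Edn1, which encodes an endothelin, and Ace, the angiotensin-converting enzyme, were under 4-fold at 153, 95.1, 148 and 9.02 CPM and 999.96, 384, 215 and 62.1 CPM. Antigen presentation was on the P1 side, with 10 of 18 genes higher by 4-fold or more, 0 in P2 and a median log2 ratio of 2.08. H2-Q7, a class I gene whose reads may be split with H2-Q6, stood at 859, 20.9, 386 and 42.5 CPM. Cd74, the class II invariant chain, stood at 348, 17.3, 187 and 114 CPM and H2-Ab1, a class II chain, at 236, 5.28, 50.95 and 34.5 CPM, while the macrophage gene Lyz2 stood at 59.4, 1.40, 68.8 and 444 CPM. These 3 genes were higher in both P1 libraries than in fat P2. Tapbp, which loads class I molecules, was within 2-fold at 304, 237, 287 and 196 CPM, and its sign changed with TMM scaling.

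Glycolytic, mitochondrial and interferon-response genes are given beside the shares over all genes at the list level, 8.02% in P1 and 6.85% in P2. At these shares lists this short would hold few genes past 4-fold, so the counts are not read as a trait of the lists. Glycolytic genes had 1 of 13 measured members past 4-fold, Hk2, at 0.307, 133, 5.36 and 7.73 CPM, and a median log2 ratio of -0.45, while Gapdh stood at 123, 215, 556 and 77.8 CPM. The 12 measured genes of the mitochondrial genome had 0 members past 4-fold and a median of 0.56, which was 0.060 with TMM scaling and 1.21 over all deposited barcodes. Interferon-response genes had 0 of 16 past 4-fold in P1 and 2 in P2, with a median of 0.34 that was -0.12 with TMM scaling. Ifi27l2a stood at 7.83, 854, 223 and 226 CPM and Cxcl10 at 0.614, 60.3, 28.6 and 0.515 CPM, both low in the fat-labelled P1 library.

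Ligands and receptors were compared over 55 pairs taken from textbook knowledge, of which 30 had both genes at 50 CPM or above on either side. The sides were set by the libraries labelled fat, so population and organ are not separated for these pairs. Over all genes at that level, 12.4% were called in P1 and 10.1% in P2. The pairs were chosen by hand and some genes recur in them, so the counts describe these pairs and are not read as an excess. In 7 pairs both genes were higher by 4-fold or more in the fat-labelled P1 library. Among them Dll4 stood at 228 and 0.161 CPM in the fat-labelled P1 library and fat P2 and its receptor Notch1 at 362 and 19.5. Kitl, the ligand of Kit, stood at 876 and 60.7 CPM. Apln and its receptor Aplnr were both on the P1 side, with Aplnr at 271 and 0.596 CPM. Efnb2, an ephrin of arteries, stood at 837 and 15.2 CPM and its receptor Ephb4 at 207 and 13.01. Vegfa was a weaker member, at 484 and 95.9 CPM, and fell under 4-fold with TMM scaling. In the lung-labelled P1 library Kit stood at 8.94 CPM and Apln was low as well, whereas Flt1, a receptor of Vegfa, stood at 903.

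Pairs also ran between the populations. From the P1 to the P2 library ran 2 pairs, both with the ligand Pdgfb, which endothelial cells secrete to draw mural cells and fibroblasts. Pdgfb stood at 318 CPM in the fat-labelled P1 library and 0.252 in fat P2, Pdgfrb at 8.91 and 163 CPM, and Pdgfra as given above. From P2 to P1 ran 5 pairs. Adm, the ligand of Calcrl, stood at 0.307 and 88.2 CPM. Slit3, a guidance ligand, stood at 15.4 and 216 CPM and Robo4 at 179.6 and 0.459. Vegfd stood at 6.14 and 85.9 CPM and its receptor Flt4 at 88.9 and 0.0688. Lama4, a laminin of vessel basement membrane, stood at 21.7 and 262 CPM against Itga6, and Wnt2 faced Fzd4, which stood at 371 and 53.4 CPM. Within P2 both genes were high in 2 pairs, Fgf2 with Fgfr1 and Ccl2 with Ackr1, where Fgf2 stood at 0.614 and 74.8 CPM and Fgfr1 at 17.7 and 343. In the lung-labelled P1 library Calcrl stood at 105 CPM, Robo4 at 243, Flt4 at 65.3 and Itga6 at 271. These are RNA levels of single genes and do not show that the cells signal to each other.

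Markers of other cell types differed in level between types and libraries. Sums of the listed markers in the fat-labelled P1 library and fat P2 were 22.9 and 8.26 CPM for T and NK cells, 73.9 and 14.1 for macrophages or monocytes, 2.15 and 22.6 for neutrophils, and 0.154 and 14.1 for adipocytes. Mural markers summed to 145, 81.4, 649 and 803 CPM in the 4 libraries and were higher in both libraries labelled lung. Of the 11 mural genes 3 reached 20 CPM in 1 of the 2 libraries labelled fat, among them Acta2 at 41.2, 9.04, 188 and 208 CPM. Haemoglobin genes summed to 223, 25.3, 5815 and 267 CPM, with Hbb-bs at 155, 16.9, 3902 and 174 CPM. Lymphatic markers summed to 852, 170.03, 1267 and 85.1 CPM and were divided. Lyve1, Flt4 and Ccl21a were on the P1 side and Pdpn on the P2 side, at 24.7, 168, 16.1 and 40.7 CPM. Ccl21a, at 35.9, 0.0229, 969 and 0 CPM, made up most of the sum of the lung-labelled P1 library. The part of these cell types in the results above was not tested.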

How the data were processed

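Raw UMI counts were deposited as 1 matrix per library of the barcodes that cell calling had passed. The submitters' processing notes name mm10 as the build and Cell Ranger 3.1.0 as the tool, and the gene annotation release is not given in the sources used here. Each matrix had 31053 gene entries, and 35 symbols shared by several IDs were summed, giving 31017 symbols. Of the IDs 30934 were found in GENCODE vM21 (GRCm38), which gave the coordinates. Capture was at the 3' end, so levels of different genes are not compared.

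Barcodes were filtered as given above and no doublets were removed. Sums per library were scaled to CPM, and log2 ratios were taken after adding 10 CPM. Called means at least 4-fold at 50 CPM or more in 1 library, and list members were counted at 20 CPM or more. Shares were counted after thinning each barcode to 2000 UMIs. The 40 gene lists (15 of them marker lists), the 55 ligand and receptor pairs, the comparison and its patterns were chosen with earlier results of these data known. Genes named are the sort gate genes, the 8 leading genes of each pattern and side, from every list as many as 5 genes of largest and 3 of smallest ratio (at 100 CPM or more), and the genes of measured pairs, and not all of them are printed. Foxf1, Hpgd, Lyve1 and other genes named by a list and by a pattern count under both. The classing step was tested on simulated counts. Alternatives were other added constants, minimums, TMM (edgeR 4.0.16) and median-of-ratios scaling, barcode filters, removal of the highest Scrublet scores (scanpy 1.11.5), equal weight for barcodes and, added after the data had been seen, leaving out each library labelled lung and exchanging the P1 libraries. Other steps used Python 3.11.15, numpy 2.4.6, scipy 1.17.1, pandas 2.3.3 and R 4.3.3. Promoter windows came from a RefSeq table on GRCm38.p6, in which 97 of 144 and 103 of 151 population genes were found.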

Additional observations from a re-analysis of the deposited data

Results flagged for a closer look

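The difference between P1 and P2 had opposite directions under the 2 tissue labels for a set of genes. Of the 586 genes higher by 4-fold or more in the fat-labelled P1 library than in fat P2, 41 were at least 4-fold lower in the lung-labelled P1 library than in lung P2. In the same direction as in fat, 160 of them (27.3%) were at least 4-fold higher there. Of the 479 genes higher by 4-fold or more in fat P2, 26 were higher by 4-fold or more in the lung-labelled P1 library than in lung P2. For 171 of them (35.7%) lung P2 was at least 4-fold higher, as in fat. The share of opposite genes over all genes compared was not counted. With 1 library per population and tissue the difference between the tissues was not tested. The log2 ratio of P1 over P2 as labelled lung was -8.58 for Sftpc, -4.99 for Mapt, -4.03 for Ager, -5.70 for Sftpa1, -5.02 for Tbx2 and -3.48 for Emp2, all of which were higher in P1 as labelled fat. In the same direction it was -4.09 for Ncald, -3.05 for Adgrl3, -2.20 for Hopx, -2.51 for Cldn18, -3.58 for Hpgd, -2.44 for Foxf1 and -2.25 for Hoxa5. All of these named genes were crossed, and the definition of that pattern fixes the sign. The ratio of Hpgd rests on few lung P2 barcodes, as given above.

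The named crossed genes higher in P2 as labelled fat had ratios above 0 as labelled lung, which the definition of the pattern fixes. The log2 ratio was 4.24 for Socs3, 3.83 for Fosb, 3.62 for Efhd1, 3.46 for Atf3, 4.25 for Gadd45g and 2.96 for Itm2a. For the others it was 2.63 for Procr, 2.63 for Cxcl1, 2.64 for Gja1, 2.42 for Fos, 2.82 for Junb, 2.56 for Dnajb1 and 2.49 for Ackr1. Surfactant and alveolar genes lie in the first set and immediate early genes in the second. The reason for the crossing was not tested.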

How the results depend on the processing

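With 1 library per side there is no replicate to leave out, and counts of genes describe these libraries. No paired analysis was possible because each group has 1 library and the labels carry no replicate numbers. Over 13 settings the 182 named genes at least 4-fold apart, some of them under 50 CPM, kept their direction in all 2366 values. Many of these genes were named for their large ratios, so this was largely set by the choice and lends no support. Below 4-fold fell 51 values, from 36 genes. Of 26 list medians 0 reversed among those at 4-fold or more, and the 4 changes of sign concerned small medians, such as that of the interferon list, under the 2 scalings. With 1 CPM added the crossed genes numbered 45 on the P1 side and 35 on the P2 side. With 50 CPM added the calls fell to 253 and 224, the population genes to 47 and 45 and the crossed genes to 7 and 8, since a larger constant draws low genes towards no difference. The calls with no minimum level and with a minimum of 20 CPM were the same, 653 and 558. Scaling moved the split, with 451 and 642 calls under TMM and 455 and 632 under median-of-ratios scaling. Removing the highest doublet scores, which took out 30 and 499 barcodes, gave 588 and 478 calls, and using all deposited barcodes gave 569 and 483. The patterns depend on which libraries define them, because fewer libraries set fewer conditions, which are given with the patterns above. Without the lung-labelled P1 library the population genes numbered 360 and 236 and the crossed genes 118 and 173. Without lung P2 they numbered 280 and 327, and 187 and 98. With the lung-labelled P1 library in place of the one labelled fat P1, 427 and 405 genes were called against fat P2. Depth limits the lung-labelled P1 library most, where 3 counts are 2.68 CPM and thinning left 164 barcodes.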
